A study of Mus musculus with 6 samples.

Results

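The genes described are the Eph receptors, ephrins, semaphorins, plexins, neuropilins, Robo receptors, Slits and netrins, which guide axons and migrating cells. They were taken by gene symbol from the 24391 genes counted in each library, which gave 64 genes: 14 Eph receptors, 8 ephrins, 20 semaphorins, 9 plexins, 2 neuropilins, 4 Robo receptors, 3 Slits and 4 netrins. RNA sequencing had been carried out on cultured tumour cells of the iBIP mouse, a melanoma model on a mixed FVB and B6 background. In this mouse doxycycline switches on TetO-BRAFV600E through Rosa26-rtta, and 4-OHT, a tamoxifen metabolite, activates Tyr-CreERT2, a Cre driven by a melanocyte promoter, which deletes floxed INK/ARF. All cells compared carry these alleles, and tumours had been raised on the ears with doxycycline and 4-OHT and their cells kept in high-glucose DMEM. The KMT2D KO libraries (n = 3, source label "KMT2D Mutant") come from cells of mice that were also homozygous for floxed KMT2D (iBIP;KMT2DL/L). The KMT2D WT libraries (n = 3) come from cells of iBIP;KMT2D+/+ mice. KMT2D methylates histone H3 at enhancers. Age is not given in the sources used here, nor is the number of tumours, mice or cultures behind each genotype. The p-values therefore measure only how far these libraries scatter, and that scatter may be technical. Genotype and tumour of origin cannot be told apart.

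Ephrins are membrane-bound ligands: A-type ephrins are held by a lipid anchor and bind mainly EphA receptor tyrosine kinases, while B-type ephrins span the membrane and bind mainly EphB receptors, and both partners can signal. Class 3 semaphorins are secreted and act mostly through neuropilins joined to A-type plexins. The other vertebrate classes are mostly membrane-bound and act on plexins directly. Slits are secreted ligands of Robo receptors, and netrins are secreted ligands of Dcc, Neo1 and Unc5 receptors. Melanocytes arise from the neural crest, whose migrating cells are steered by several of these systems.

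Library totals ranged from 55594979 to 79718782 counts in KMT2D KO and from 43168605 to 59360068 counts in KMT2D WT. Log2 CPM of tested genes correlated at 0.981 to 0.996 within a group and at 0.868 to 0.882 between groups, across genes, which are not independent replicates. Kmt2d had 73.0, 69.3 and 79.8 CPM (counts scaled to library size with TMM factors) in KMT2D KO and 79.7, 87.6 and 101 CPM in KMT2D WT, with overlapping libraries (log2 fold change -0.27, SE 0.08, edgeR adjusted p = 0.0075). The call was lost without KMT2D KO replicate 2 (-0.21, edgeR adjusted p = 0.058), the value was -0.17 without KMT2D WT replicate 3, and a gene total need not show the loss of a floxed part. Melanocyte markers were sparse: Tyr, Tyrp1, Dct and Kit had at most 0.163 CPM in any KMT2D KO library and 0.112 CPM in any KMT2D WT library, while Mitf averaged 53.2 CPM in KMT2D KO and 15.4 CPM in KMT2D WT. The 10 melanocyte genes summed to 658 to 692 CPM in KMT2D KO and 397 to 492 CPM in KMT2D WT, mostly from Gpnmb. Summed over 8 fibroblast markers, which include the collagen genes Col1a1, Col1a2 and Col3a1, levels ran from 21200 to 22200 CPM in KMT2D KO and from 5530 to 5730 CPM in KMT2D WT. Of these genes 6 were higher, and Dpt (0.839 CPM in KMT2D KO, 44.8 CPM in KMT2D WT) and Lum were lower. The 8 Schwann cell genes summed to 166 to 179 CPM in KMT2D KO and 39.5 to 44.4 CPM in KMT2D WT, mostly from Ncam1 and Egr2, but 3 were higher, 4 lower (S100b, Ngfr, Erbb3 and Gap43) and their median log2 fold change was -1.05. The 6 keratinocyte genes summed to 68.9 to 76.0 CPM in KMT2D KO and 18.2 to 21.4 CPM in KMT2D WT, mostly from Perp, with Trp63 also higher, Dsp lower, Krt5, Krt14 and Krt10 not called and a median of -0.11. The 7 immune genes summed to 3.16 to 3.81 CPM in KMT2D KO and 10.3 to 16.1 CPM in KMT2D WT, with 4 lower and none higher. The 10 endothelial genes summed to 10 to 10.7 CPM in KMT2D KO and 5.47 to 7.51 CPM in KMT2D WT, mostly from Egfl7. Pecam1 and Cdh5, defining endothelial genes, had at most 0.261 CPM in any KMT2D KO library and 0.667 CPM in any KMT2D WT library. Although the extraction label names cerebellar tissue, the cerebellar genes Pcp2, Calb1, Gabra6, Neurod1 and Cbln1 had at most 0.117 CPM in any KMT2D KO library and 0.268 CPM in any KMT2D WT library, and the 10 neuronal genes summed to 22.7 to 23.4 CPM in KMT2D KO and 10.6 to 11.9 CPM in KMT2D WT, mostly from Tubb3. The 4 tested genes of chromosome Y had a median log2 fold change of -7.58. The part of these differences in the changes described next was not tested, and in bulk RNA fewer expressing cells and less RNA per cell cannot be told apart.

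Guidance genes moved in both directions. Of 64 genes, 56 passed the low-count filter, and 23 of these were higher and 20 lower in KMT2D KO, with 13 not called. Called genes made up 76.8% of these 56, beside 71.0% of all 14579 tested genes, where 35.4% were higher and 35.5% lower. The called share was thus near that of all genes. More than 2-fold differences were called for 27, 13 higher and 14 lower, which is 48.2% of the tested guidance genes beside 26.8% of all tested genes. An absolute log2 fold change over 3 was called for 8, or 14.3% beside 7.73%: Epha3, Epha5, Sema3d, Sema3f, Sema3g, Sema5a, Plxna4 and Plxnc1. Over the 56 tested guidance genes the median log2 fold change was 0.18 and the median of its absolute value 1.02, beside 0.00 and 0.53 over all tested genes. No overlap between KMT2D KO and KMT2D WT libraries was seen in 45 guidance genes (80.4%, beside 74.3% of all tested genes). At a mean of at least 1 FPKM (CPM per kilobase of exon), 34 genes were present in both groups and 22 in neither. Epha3, Efna1, Robo2, Sema3d and Sema6c reached that level in KMT2D KO and not in KMT2D WT, and Plxnc1, Sema3e and Sema5a did so in KMT2D WT and not in KMT2D KO.

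**Figure D1:**
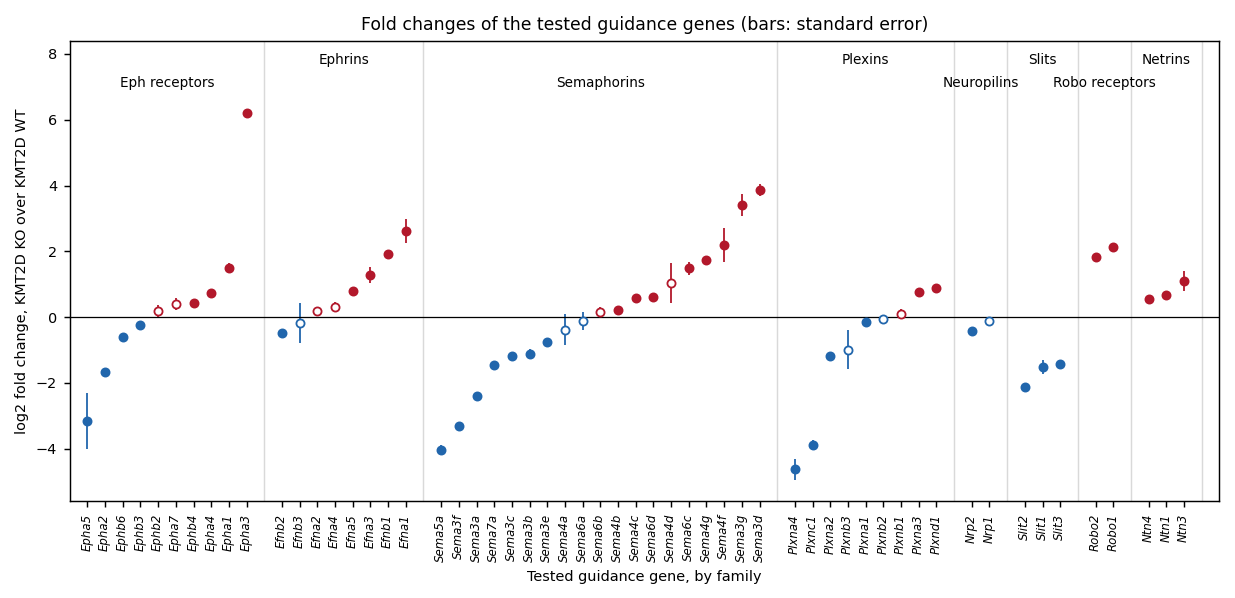
Log2 fold change of each of the 56 tested guidance genes (y axis, KMT2D KO over KMT2D WT), grouped by family along the x axis. Filled points were called at an edgeR adjusted p under 0.05, open points were not, red points lie above 0 and blue points below, and bars are standard errors. The points run from -4.62 for Plxna4 to 6.19 for Epha3, with all 3 Slits below 0 and both tested Robo receptors above it.

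Promoters are shown for 3 members with wide changes in either direction, and for Sema3a, which neighbours Sema3d and changed the other way. Of the 64 genes, 56 have a promoter in the RefSeq table (GRCm38.p6, from 250 bases before to 50 after the start), 72 promoters in all. Plxna4, which had the largest fall (-4.62), has none there and is not shown. CpG dinucleotides are in capitals.
Epha3, chr16:63864126-63864425, minus strand: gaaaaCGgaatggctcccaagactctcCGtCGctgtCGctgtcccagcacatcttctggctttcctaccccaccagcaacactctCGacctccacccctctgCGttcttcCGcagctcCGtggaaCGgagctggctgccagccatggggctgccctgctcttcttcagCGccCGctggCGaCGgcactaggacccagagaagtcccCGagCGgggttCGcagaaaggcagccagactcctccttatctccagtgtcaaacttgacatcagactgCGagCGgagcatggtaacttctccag
Sema3d, chr5:12382916-12383215, plus strand: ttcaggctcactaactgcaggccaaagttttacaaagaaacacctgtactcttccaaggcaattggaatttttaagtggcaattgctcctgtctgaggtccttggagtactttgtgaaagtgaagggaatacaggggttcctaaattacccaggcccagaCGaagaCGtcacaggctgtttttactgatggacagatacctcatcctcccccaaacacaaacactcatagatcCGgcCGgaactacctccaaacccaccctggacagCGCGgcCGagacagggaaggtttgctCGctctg
Sema3a, chr5:13396534-13396833, plus strand: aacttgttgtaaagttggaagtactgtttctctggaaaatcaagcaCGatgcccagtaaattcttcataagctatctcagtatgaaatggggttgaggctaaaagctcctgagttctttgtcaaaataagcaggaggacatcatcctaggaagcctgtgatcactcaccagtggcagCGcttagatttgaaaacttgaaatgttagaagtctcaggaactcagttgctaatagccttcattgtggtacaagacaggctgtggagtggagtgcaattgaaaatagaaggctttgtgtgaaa
Sema5a, chr15:32244563-32244862, plus strand: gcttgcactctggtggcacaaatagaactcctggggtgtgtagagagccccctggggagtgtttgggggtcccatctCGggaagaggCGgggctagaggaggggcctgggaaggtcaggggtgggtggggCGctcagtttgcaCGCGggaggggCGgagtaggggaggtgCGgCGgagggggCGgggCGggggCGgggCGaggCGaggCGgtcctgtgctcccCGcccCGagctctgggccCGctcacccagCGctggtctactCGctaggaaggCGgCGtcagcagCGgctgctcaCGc
The windows held 18 CpGs for Epha3, 8 for Sema3d, 2 for Sema3a and 23 for Sema5a, where the median of all 32851 promoters was 7, with quartiles of 3 and 20, and the median of the 72 was 18. Epha3, which was low in KMT2D WT, and Sema5a, which was low in KMT2D KO, thus both had more CpGs than the median promoter, and Sema3a had fewer. None of the 4 windows held TATAAA (the TATA box, in 13.6% of all promoters) or TGANTCA (a motif of AP-1 factors, in 7.81%) on either strand.

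The Eph receptors were shared mainly by Ephb4, Epha2 and Epha3 in KMT2D KO and led by Epha2 in KMT2D WT. Of 14 genes, 10 were tested, 4 were higher (Epha3, Epha1, Epha4 and Ephb4), 4 lower (Epha5, Epha2, Ephb6 and Ephb3) and 2 not called. Epha3 (chromosome 16, 63545044 to 63863983, minus strand, in mm9 as all gene positions here), an EphA receptor for A-type ephrins, had 34.6, 32.3 and 33.5 CPM in KMT2D KO libraries and 0.359, 0.452 and 0.581 CPM in KMT2D WT libraries. Every KMT2D KO library was far above every KMT2D WT library, which held 75 fragments in all. The log2 fold change was 6.19 (SE 0.14, edgeR adjusted p = 1.2e-14).

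Epha2 (chromosome 4, 140857136 to 140885299), an EphA receptor widely studied in cancer, gave 53.7, 57.8 and 57.6 CPM in KMT2D KO and 175, 179 and 183 CPM in KMT2D WT. The groups were well apart, and the log2 fold change was -1.66 (SE 0.06, edgeR adjusted p = 1.1e-12). Per length, Epha2 made up 27.8% to 28.9% of the summed Eph FPKM in KMT2D KO libraries and 65.9% to 68.5% in KMT2D WT libraries. Ephb4, the receptor of Efnb2 in arteriovenous patterning, made up 31.9% to 32.9% and 16.8% to 18.8%, and Epha3 15.9% to 17.7% and 0.134% to 0.215%. The highest Eph receptor per length was therefore Ephb4 in KMT2D KO (16.5 FPKM, Epha2 14.3) and Epha2 in KMT2D WT (45.5 FPKM, Ephb4 12.2). Eph receptors together came to 50.7 ± 1.53 FPKM in KMT2D KO and 68.0 ± 0.696 FPKM in KMT2D WT (SD, n = 3).

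Apart from the scarce Epha5, the other called Eph receptors had smaller log2 fold changes than Epha3 and Epha2. Ephb4 gave 68.4, 73.0 and 74.0 CPM in KMT2D KO and 55.4, 55.2 and 49.7 CPM in KMT2D WT, without overlap (log2 fold change 0.42, SE 0.06, edgeR adjusted p = 2.6e-05). Epha1 had 10.4, 10.5 and 12.4 CPM in KMT2D KO and 4.57, 3.71 and 3.42 CPM in KMT2D WT, again without overlap (1.5, SE 0.14, edgeR adjusted p = 1.6e-07). Exons of Epha1 share 236 of their 3273 bases with Zyx, and fragments there are left out by default, so its counts are uncertain. Epha4, a receptor that binds both A-type and B-type ephrins, had 10.1, 11.3 and 10.7 CPM in KMT2D KO and 6.36, 5.80 and 7.09 CPM in KMT2D WT (0.74, edgeR adjusted p = 5.0e-05). Ephb6, whose kinase domain is inactive, had 7.47, 6.43 and 8.37 CPM in KMT2D KO and 11.5, 12.6 and 9.90 CPM in KMT2D WT (-0.61, edgeR adjusted p = 0.00059). Both were without overlap, and so was Ephb3, with 13.0, 14.9 and 13.1 CPM against 15.4, 16.6 and 16.8 CPM in KMT2D WT (-0.25, edgeR adjusted p = 0.027). The call of Ephb3 was lost without KMT2D KO replicate 1 (-0.20), KMT2D KO replicate 3 (-0.21) or KMT2D WT replicate 2 (-0.23) and with no low-count filter (-0.22, edgeR adjusted p = 0.069), and relative to the median of chromosome 16, which was -0.44, its sign turned (0.19).

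Epha5 was called lower at a very low level, with 6 fragments over the KMT2D KO libraries and 51 over the KMT2D WT libraries (-3.16, SE 0.86, edgeR adjusted p = 0.0043). Epha7 averaged 0.576 FPKM in KMT2D KO and 0.435 FPKM in KMT2D WT, and Ephb2 0.595 and 0.523 FPKM, and neither was called (edgeR adjusted p = 0.074 and 0.36). Epha7 was called higher with no low-count filter (0.43, edgeR adjusted p = 0.026) and without KMT2D KO replicate 2 (0.58, edgeR adjusted p = 0.016). Ephb1 was not tested in the filtered table. It had no fragment in the KMT2D KO libraries, where a floor of 3 counts over the group is 0.0157 CPM, and 34 in the KMT2D WT libraries. Its KMT2D WT level was 13.1 times that floor, a ratio that leaves out the counting error of the 34 fragments. Without the filter Ephb1 was called (edgeR adjusted p = 0.0023). Epha6, Epha8 and Epha10 had at most 5 fragments in a group.

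Among the 8 ephrins 4 rose, 1 fell and 3 were not called, and per length (FPKM) the leading ligand was Efnb1 in KMT2D KO and Efnb2 in KMT2D WT. Efnb1 (chromosome X), a B-type ephrin, gave 76.5, 78.4 and 77.7 CPM in KMT2D KO and 18.4, 23.2 and 19.4 CPM in KMT2D WT. The 3 KMT2D KO libraries lay close together and far above KMT2D WT (log2 fold change 1.93, SE 0.08, edgeR adjusted p = 1.9e-11). Efnb2 (chromosome 8), the B-type ephrin that marks arteries, gave 86.1, 82.8 and 79.1 CPM in KMT2D KO and 97.7, 113 and 133 CPM in KMT2D WT. It was lower in each KMT2D KO library, and its spread was wider in KMT2D WT (-0.47, SE 0.09, edgeR adjusted p = 0.00022). Efnb1 made up 40.2% to 41.3% of the summed ephrin FPKM in KMT2D KO libraries and 12.6% to 16.3% in KMT2D WT libraries, and Efnb2 32.7% to 35.2% and 59.8% to 67.6%.

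A-type ephrins, which bind the EphA receptors, were higher in 3 of 5 cases and lower in none. Efna1, a ligand of Epha2, had 2.20, 1.71 and 2.09 CPM in KMT2D KO and 0.222, 0.258 and 0.514 CPM in KMT2D WT, without overlap (2.62, SE 0.36, edgeR adjusted p = 1.3e-05). Efna3 had 2.74, 3.45 and 4.40 CPM in KMT2D KO and 1.76, 1.44 and 1.12 CPM in KMT2D WT, also without overlap (1.28, SE 0.24, edgeR adjusted p = 0.00022). Efna5, a ligand of Epha3, had 15.1, 13.6 and 15 CPM in KMT2D KO and 6.76, 8.96 and 9.66 CPM in KMT2D WT (0.79, SE 0.13, edgeR adjusted p = 5.2e-05). These groups did not overlap either. Efna2 (3.24 FPKM in KMT2D KO, 2.82 FPKM in KMT2D WT), Efna4 (4.24 and 3.44 FPKM) and the scarce Efnb3 (0.0831 and 0.0982 FPKM) were not called. Efna4 was called higher with no low-count filter (0.33, edgeR adjusted p = 0.043) and when KMT2D WT replicate 1 (0.40) or KMT2D KO replicate 3 (0.43) was left out. A-type ephrins summed to 14.3 ± 0.432 FPKM in KMT2D KO and 9.25 ± 0.390 FPKM in KMT2D WT (SD, n = 3), while EphA receptors summed to 28.4 ± 0.782 and 48.2 ± 0.906 FPKM.

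**Figure D2:**
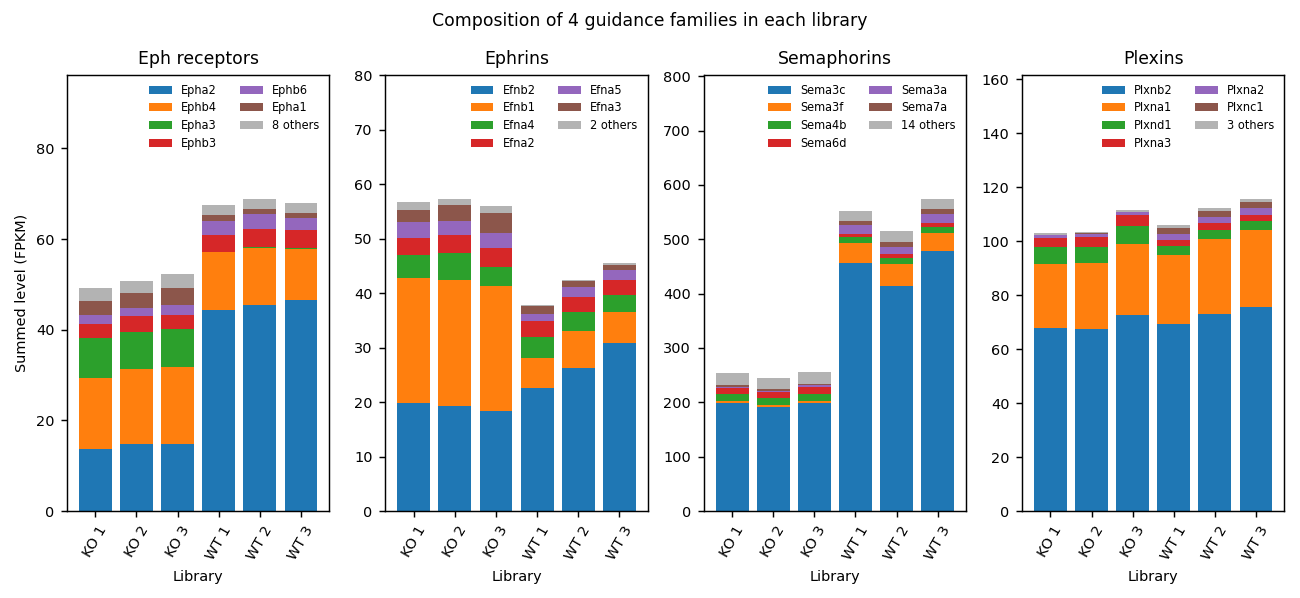
Summed FPKM of Eph receptors, ephrins, semaphorins and plexins (y axes, linear, from 0) in each of the 3 KMT2D KO and 3 KMT2D WT libraries (x axes), stacked by gene with the 6 most abundant members in colour and the others in grey. Epha2 fills 27.8% to 28.9% of the Eph bar in KMT2D KO and 65.9% to 68.5% in KMT2D WT, and the semaphorin bars, mostly Sema3c, are shorter in KMT2D KO (251 against 547 FPKM on average).

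Semaphorins moved in both directions. Of 20 genes, 19 were tested, 8 were higher, 7 lower and 4 not called. Among the secreted class 3 genes 2 were higher and 5 lower, among class 4 genes 4 were higher and none of 6 lower, among class 6 genes 2 were higher and none of 4 lower, and Sema5a and Sema7a, the tested genes of their classes, were lower. A difference between classes was not tested. Sema3c (chromosome 5), which acts through neuropilins on neural crest and endothelial cells, was by far the most abundant, with 988, 952 and 985 CPM in KMT2D KO and 2260, 2050 and 2370 CPM in KMT2D WT. Every KMT2D KO library lay well below every KMT2D WT library (log2 fold change -1.19, SE 0.06, edgeR adjusted p = 7.4e-11). Sema3c alone made up 77.9% to 78.6% of semaphorin FPKM in KMT2D KO libraries and 80.2% to 83.3% in KMT2D WT libraries. Without it semaphorins still summed to less in KMT2D KO, 54.6 ± 1.75 FPKM against 97.8 ± 3.55 FPKM (SD, n = 3). Among the rest, Sema3f (3.72 FPKM in KMT2D KO, 37.1 FPKM in KMT2D WT) and Sema3a (2.87 and 15 FPKM) differed most in FPKM. Class 4 (24.0 and 16.5 FPKM) and class 6 (14.5 and 9.69 FPKM) summed to more in KMT2D KO, and classes 5 and 7 to less.

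Sema3f and Sema3a, the classical repellents that act through Nrp2 and Nrp1, were lower. Sema3f (chromosome 9, 107583833 to 107612806) gave 12.7, 12.2 and 13.0 CPM in KMT2D KO and 124, 137 and 117 CPM in KMT2D WT, well apart (-3.32, SE 0.07, edgeR adjusted p = 1.1e-14). Sema3a gave 19.5, 20.9 and 22.3 CPM in KMT2D KO and 109, 100 and 118 CPM in KMT2D WT, also well apart (-2.39, SE 0.07, edgeR adjusted p = 5.9e-13). Sema3b (1.6 FPKM in KMT2D KO, 3.48 FPKM in KMT2D WT; -1.12) and Sema3e, a ligand of Plxnd1 (0.955 and 1.64 FPKM; -0.77), fell as well. The 2 class 3 genes that rose were scarce in KMT2D WT. Sema3d had 16.4, 15.4 and 15.9 CPM in KMT2D KO and 1.57, 0.920 and 0.715 CPM in KMT2D WT, and no library came near the other group (3.87, SE 0.19, edgeR adjusted p = 1.5e-10). Sema3g had 3.26, 2.78 and 4.19 CPM in KMT2D KO and 0.479, 0.274 and 0.179 CPM in KMT2D WT, without overlap (3.41, SE 0.33, edgeR adjusted p = 2.4e-07). Class 3 genes summed to 209 ± 4.56 FPKM in KMT2D KO and 507 ± 30.0 FPKM in KMT2D WT.

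Of the membrane-bound semaphorins, Sema5a had the largest fall. Sema5a (chromosome 15), a transmembrane semaphorin with thrombospondin repeats, had 3.69, 2.78 and 4.19 CPM in KMT2D KO and 51.7, 57.2 and 64.8 CPM in KMT2D WT. The groups lay far apart (-4.03, SE 0.13, edgeR adjusted p = 6.7e-13). Sema7a, a lipid-anchored ligand of Plxnc1, had 10.5, 11.3 and 9.98 CPM in KMT2D KO and 26.8, 30.7 and 28.6 CPM in KMT2D WT, without overlap (-1.44, SE 0.09, edgeR adjusted p = 1.7e-09). Sema4g had 21.0, 20.6 and 18.1 CPM in KMT2D KO and 5.01, 6.47 and 6.3 CPM in KMT2D WT (1.75, SE 0.12, edgeR adjusted p = 3.8e-09), and Sema6c 4.25, 4.69 and 4.44 CPM in KMT2D KO and 1.59, 2.03 and 1.12 CPM in KMT2D WT (1.48, SE 0.21, edgeR adjusted p = 1.7e-05). In both, all KMT2D KO libraries were the higher ones. Smaller rises were called for Sema4b (12.4 FPKM in KMT2D KO, 10.6 FPKM in KMT2D WT; 0.23), Sema4c (6.57 and 4.34 FPKM; 0.59) and Sema6d (11.4 and 7.48 FPKM; 0.61), and a larger one for the scarce Sema4f (0.194 and 0.0421 FPKM; 2.19). The call of Sema4b was lost when counts were scaled by library size alone (0.12, edgeR adjusted p = 0.14). Sema4a, Sema4d, Sema6a and Sema6b were not called, and Sema5b, with 3 fragments in KMT2D KO and 0 in KMT2D WT, was not tested.

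Of 9 plexins, 2 were higher, 4 lower and 3 not called, and of 2 neuropilins 1 was lower. Plxnb2, a receptor for class 4 semaphorins, was the most abundant plexin, with 451, 450 and 484 CPM in KMT2D KO and 461, 487 and 503 CPM in KMT2D WT. Its libraries overlapped and it was not called (-0.07, SE 0.05, edgeR adjusted p = 0.28), though it was called lower with library size only (-0.18, edgeR adjusted p = 0.007). It made up 65.1% to 65.6% of plexin FPKM in KMT2D KO libraries and 65.1% to 65.4% in KMT2D WT libraries. Plxna1, a signalling partner of neuropilins and the next by FPKM (24.8 in KMT2D KO, 27.4 in KMT2D WT), had 215, 219 and 238 CPM in KMT2D KO and 232, 250 and 258 CPM in KMT2D WT. It was called lower although the groups overlapped (-0.14, SE 0.06, edgeR adjusted p = 0.041), and the call was lost without KMT2D KO replicate 1 (-0.10), KMT2D KO replicate 2 (-0.11), KMT2D WT replicate 2 (-0.13) or KMT2D WT replicate 3 (-0.11), and with no low-count filter (-0.11, edgeR adjusted p = 0.095).

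Plxna4 and Plxnc1 fell furthest. Plxna4 (chromosome 6), another partner of neuropilins, had 0.130, 0.163 and 0.301 CPM in KMT2D KO and 3.87, 4.36 and 6.06 CPM in KMT2D WT, far apart (-4.62, SE 0.32, edgeR adjusted p = 5.6e-09). Per length Plxna4 was scarce in both groups (0.0157 FPKM in KMT2D KO, 0.378 FPKM in KMT2D WT), with 36 fragments over the KMT2D KO libraries. Plxnc1, the Sema7a receptor, had 0.977, 1.11 and 0.996 CPM in KMT2D KO and 16, 14.5 and 14.8 CPM in KMT2D WT, far apart as well (-3.87, SE 0.13, edgeR adjusted p = 2.0e-12). Ligand and receptor of this pair were thus both lower in KMT2D KO. Plxna2 had 10.9, 12.2 and 12.7 CPM in KMT2D KO and 26.3, 26.5 and 27.6 CPM in KMT2D WT (-1.17, SE 0.09, edgeR adjusted p = 1.2e-08). Plxnd1, the Sema3e receptor, had 43.1, 42.2 and 45.8 CPM in KMT2D KO and 23.1, 24.1 and 24.2 CPM in KMT2D WT (0.88, SE 0.07, edgeR adjusted p = 2.5e-08). Plxna3 had 24.8, 25.3 and 28.1 CPM in KMT2D KO and 14.6, 16.7 and 15.2 CPM in KMT2D WT (0.75, SE 0.09, edgeR adjusted p = 2.0e-06). None of these 3 overlapped between groups, Plxna2 being the lower and the other two the higher in KMT2D KO. Plxnb1 (0.549 FPKM in KMT2D KO, 0.508 FPKM in KMT2D WT) and Plxnb3 (0.0594 and 0.121 FPKM) were not called, but Plxnb3 was called lower without KMT2D WT replicate 1 (-1.38, edgeR adjusted p = 0.045).

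Both neuropilins, co-receptors for class 3 semaphorins and VEGFs, were well expressed. Nrp2 (chromosome 1) had 592, 575 and 592 CPM in KMT2D KO and 756, 780 and 816 CPM in KMT2D WT. It was lower in each KMT2D KO library (-0.42, SE 0.05, edgeR adjusted p = 2.2e-06). Nrp1 (chromosome 8) had 122, 126 and 126 CPM in KMT2D KO and 137, 134 and 134 CPM in KMT2D WT. Its groups did not overlap but it was not called (-0.11, SE 0.05, edgeR adjusted p = 0.057), whereas it was called with RLE size factors, library size, DESeq2, limma voom, a filter at a mean of 1 CPM or without KMT2D WT replicate 3, with log2 fold changes of -0.22 to -0.11. Exons of Nrp1 share 80 bases with Mir1903.

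**Figure D3:**
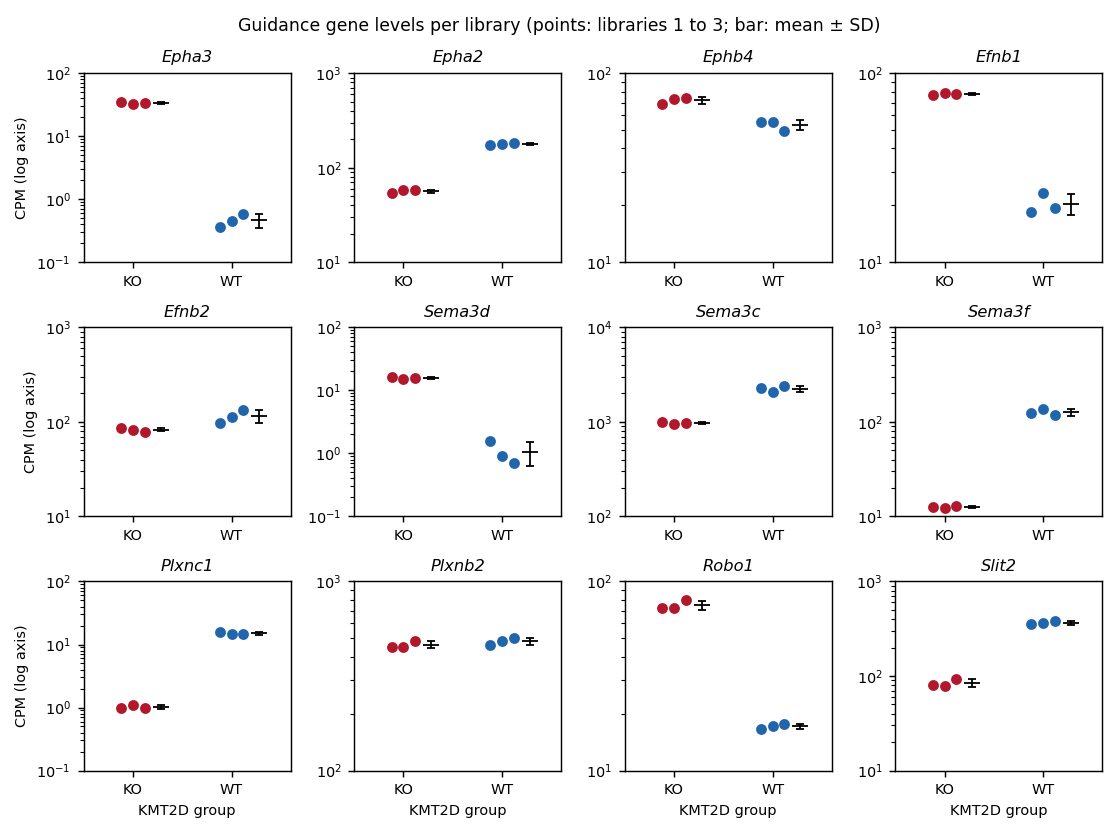
CPM of 12 guidance genes in each library (log y axes, which differ between panels), with KMT2D KO libraries in red at the left and KMT2D WT libraries in blue at the right of each panel, points for replicates 1 to 3 and the mean ± SD (n = 3) in black. The KMT2D KO libraries of Epha3 sit between 32.3 and 34.6 CPM, those of KMT2D WT between 0.359 and 0.581 CPM, while Plxnb2 overlaps.

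Slit ligands were lower and Robo receptors higher in KMT2D KO. All 3 Slits were called lower, among them Slit2 (chromosome 5), with 80.8, 78.7 and 94.0 CPM in KMT2D KO and 351, 365 and 386 CPM in KMT2D WT. The groups did not come near each other (-2.12, SE 0.07, edgeR adjusted p = 9.9e-13). Slit3 had 29.0, 28.2 and 31.5 CPM in KMT2D KO and 72.3, 77.3 and 89.7 CPM in KMT2D WT (-1.43, SE 0.08, edgeR adjusted p = 5.5e-10), and the scarcer Slit1 1.34, 1.37 and 1.05 CPM in KMT2D KO and 3.03, 3.92 and 3.89 CPM in KMT2D WT (-1.52, SE 0.21, edgeR adjusted p = 1.5e-05). Both were lower in every KMT2D KO library. Slits summed to 16 ± 1.28 FPKM in KMT2D KO and 59.6 ± 3.89 FPKM in KMT2D WT (SD, n = 3).

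Robo1 (chromosome 16, 72663394 to 73046345), a main Slit receptor, had 72.3, 72.7 and 79.7 CPM in KMT2D KO and 16.5, 17.2 and 17.7 CPM in KMT2D WT. The KMT2D KO libraries were all far higher (2.13, SE 0.07, edgeR adjusted p = 7.8e-13). Robo2 (chromosome 16, 73892551 to 74411157), its close relative, had 14.8, 15.4 and 15.8 CPM in KMT2D KO and 4.26, 3.78 and 4.94 CPM in KMT2D WT, also without overlap (1.83, SE 0.12, edgeR adjusted p = 2.9e-09). Robo receptors summed to 11.8 ± 0.598 FPKM in KMT2D KO and 2.83 ± 0.107 FPKM in KMT2D WT (SD, n = 3). Summed Slit FPKM was thus above summed Robo FPKM in both groups. Robo3 (21 fragments in KMT2D KO and 17 in KMT2D WT) and Robo4, an endothelial receptor (1 and 5 fragments), were too scarce to be tested.

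All 3 tested netrins were higher in KMT2D KO. Ntn1 (chromosome 11), the prototype netrin, had 182, 181 and 195 CPM in KMT2D KO and 119, 117 and 118 CPM in KMT2D WT, without overlap (0.66, SE 0.05, edgeR adjusted p = 3.4e-08). Ntn4, a basement membrane netrin, had 20.5, 18.9 and 17.4 CPM in KMT2D KO and 12.6, 13.3 and 12.7 CPM in KMT2D WT (0.55, SE 0.09, edgeR adjusted p = 7.4e-05). Ntn3 had 2.12, 2.18 and 1.94 CPM in KMT2D KO and 0.804, 0.678 and 1.45 CPM in KMT2D WT (1.11, SE 0.30, edgeR adjusted p = 0.0044). Each of these had its 3 KMT2D KO libraries above those of KMT2D WT, and 89 exonic bases of Ntn3 are shared with Tbc1d24. Ntn5, with no fragment in KMT2D KO and 7 in KMT2D WT, was not tested.

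Receptors and further ligands of the netrin and RGM systems, a list of 10 genes outside the symbol rule, moved both ways. Of 8 tested, 4 were higher, 3 lower and 1 not called, where 35.4% of all tested genes were higher and 35.5% lower. The median log2 fold change of the 8 was 0.94. The higher ones were the receptors Unc5c and Dscam and the ligands Rgma (1.78) and Draxin (2.62), and the lower ones the receptors Unc5a, Unc5b and Neo1. Unc5b, a netrin receptor, was lower at 42.2 ± 0.510 CPM in KMT2D KO and 365 ± 15.1 CPM in KMT2D WT (SD, n = 3; -3.11, edgeR adjusted p = 1.5e-15). Unc5c, of the same family, was higher at 17.4 ± 1.22 CPM in KMT2D KO and 0.572 ± 0.305 CPM in KMT2D WT (4.86, edgeR adjusted p = 5.8e-11). Dscam, an adhesion molecule that binds netrin, rose to 16.1 ± 0.618 CPM in KMT2D KO, against 0.346 ± 0.248 CPM in KMT2D WT (5.62, edgeR adjusted p = 3.4e-11). Neo1, a receptor for netrins and RGMs, fell to 120 ± 4.41 CPM in KMT2D KO, against 206 ± 18.9 CPM in KMT2D WT (-0.78, edgeR adjusted p = 5.7e-08). Dcc, the attractive netrin receptor, had 3 fragments over the KMT2D KO libraries and 33 over the KMT2D WT libraries and was not tested. Per length, the highest of Dcc, Neo1 and the Unc5 genes was Neo1 in KMT2D KO (16.3 FPKM, Unc5b 7.19) and Unc5b in KMT2D WT (62.2 FPKM, Neo1 27.9).

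Other genes of these pathways were described from lists of the same kind. Over all 14579 tested genes 35.4% were higher and 35.5% lower, and no list was tested as a set. Of 36 intracellular effectors, 35 were tested, 11 were higher and 17 lower, with a median of -0.11. Fes, a tyrosine kinase linked to plexin signalling, had the largest fall (0.862 CPM in KMT2D KO, 36.8 CPM in KMT2D WT; -5.44), and Crmp1, a collapsin response mediator, fell to 0.167 CPM in KMT2D KO, against 1.71 CPM in KMT2D WT (-3.28). Mical1, a redox enzyme downstream of plexins, rose to 37.1 CPM in KMT2D KO, against 1.88 CPM in KMT2D WT (4.30), and the adaptor gene Nck2 to 145 CPM, against 47.1 CPM in KMT2D WT (1.62). Of 7 tested Flrt and adhesion co-receptor genes, 1 was higher and 3 lower. Flrt3 rose (28.3 CPM in KMT2D KO, 6.45 CPM in KMT2D WT; 2.13), and Nrcam (6.14 and 67.3 CPM; -3.46) and Flrt2 (26.0 and 73.3 CPM; -1.50), a ligand of Unc5 receptors, fell. Among the genes named here the highest edgeR adjusted p was 6.0e-05.

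VEGFs and other partners of neuropilins and plexins were higher in 4 of 10 tested cases and lower in 5, with a median of -0.28. Of all tested genes 35.4% were higher and 35.5% lower. Pgf (6.68 CPM in KMT2D KO, 1.11 CPM in KMT2D WT; 2.57) and Vegfb (32.4 and 13.3 CPM; 1.29), both ligands of Flt1, rose, while Vegfa, the most abundant of its ligands in the list, fell (364 and 558 CPM; -0.62), as did Flt1 itself (0.864 and 17.9 CPM; -4.34). Trem2, a receptor best known from myeloid cells that pairs with Plxna1, fell (2.90 and 38.5 CPM; -3.71). The 7 immune markers summed to 3.16 to 3.81 CPM in KMT2D KO and 10.3 to 16.1 CPM in KMT2D WT. Tyrobp, in the same list, had 12 fragments in KMT2D KO and 3 in KMT2D WT and was too scarce to be tested. A link of Trem2 to immune cells was not tested. Of the proteases that cleave Eph receptors or ephrins, Adam17 (93.6 CPM in KMT2D KO, 57.1 CPM in KMT2D WT; 0.71) and Mmp14 (723 and 490 CPM; 0.56) rose and Adam10 (129 and 226 CPM; -0.81) fell. Among the 8 called genes named here the highest edgeR adjusted p was 4.5e-08.

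Several guidance genes are neighbours in the genome, and neighbours did not always move together. Sema3d, Sema3a and Sema3e lie in a row on mm9 chromosome 5 (12383166 to 14256689), a span of 1874 kb that holds 1 other counted gene, which was not tested. Of the 3, Sema3d rose (3.87) and Sema3a (-2.39) and Sema3e (-0.77) fell. Sema3c (-1.19) lies farther along, its start 4.70 Mb from that of Sema3d. The 17 tested genes outside the guidance families whose starts lie within 6 Mb of that of Sema3d had log2 fold changes of -3.78 to 2.39, with 5 higher and 10 lower. Robo1 and Robo2, which both rose, are likewise neighbours in a span of 1748 kb without another tested gene. The 10 tested genes outside the guidance families within 6 Mb of Robo1 ran from -5.61 to 3.77, with 2 higher and 7 lower and a median of -1.47. Sema3b and Sema3f, 113 kb from end to end on chromosome 9, both fell. Efna1, Efna3 and Efna4 lie close together on chromosome 3, and their log2 fold changes were 2.62, 1.28 and 0.30, the last not called.

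Chromosome medians differed between the groups, from -0.54 on chromosome 13 to 0.42 on chromosome 6 among the autosomes and X. The share of a fold change that belongs to its chromosome was not tested. With each log2 fold change taken relative to the median of its chromosome, 42 of the 43 called guidance genes kept their sign and Ephb3 turned. The rises of Epha3, Robo1 and Robo2 stood against the median of chromosome 16 (-0.44), and were 6.64, 2.57 and 2.27 relative to it. The fall of Plxna4 on chromosome 6 stood against a median of 0.42. Others went with their chromosome. Relative to the median of chromosome 6, Plxnd1 went from 0.88 to 0.46 and Epha1 from 1.5 to 1.08. Relative to the median of chromosome 5 (-0.36), Sema3c went from -1.19 to -0.83 and Sema3a from -2.39 to -2.03. On chromosome 5, 5 of 7 tested guidance genes were lower and 2 higher. On chromosome 9 (median -0.3), 3 of 4 were lower and 0 higher.

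**Figure D4:**
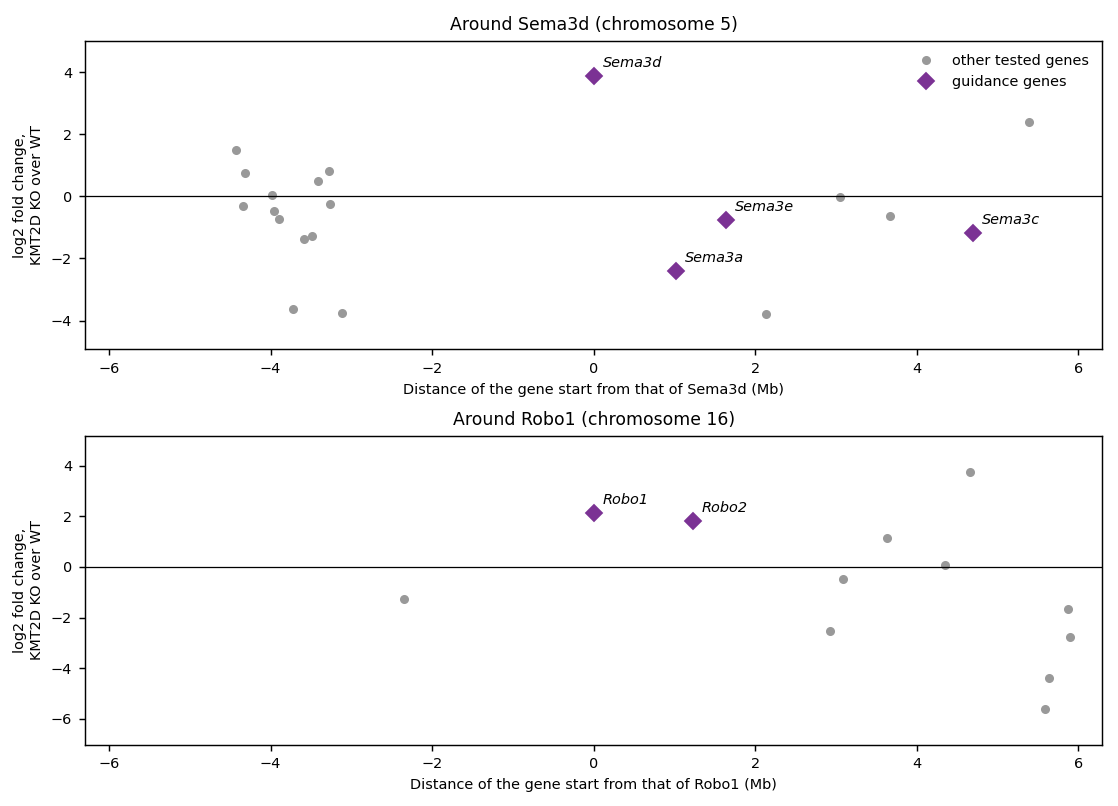
Log2 fold change (y axes, KMT2D KO over KMT2D WT) of all tested genes against the distance of their start from that of Sema3d (top) or Robo1 (bottom), in Mb within 6 Mb (x axes). Purple diamonds are guidance genes and grey points other tested genes. Sema3d stands at 3.87 beside Sema3a at -2.39, and Robo1 and Robo2 at 2.13 and 1.83.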

How the data were processed

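Each library has a table of whole-number fragment counts per gene, deposited by the authors, which came from featureCounts 1.5.2 run on mm9 exons without a strand option, per the file headers. By default that tool leaves out fragments shared between genes or places. The submitters' processing notes also name STAR and HTSeq, with no roles. Promoter sequences are of another build (GRCm38.p6, RefSeq). Part of the genotype shared by both groups is not reported here.

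From the counts, genes were tested with the quasi-likelihood test of edgeR 4.0.16 (R 4.3.3) with TMM scaling (factors 0.957 to 1.044), the default low-count filter by group, which left 14579 genes, and group as the sole term. Calls required a Benjamini-Hochberg adjusted p under 0.05 over all tested genes. Each log2 fold change is KMT2D KO minus KMT2D WT, and its SE is its size over the square root of F. FPKM are CPM divided by the exonic length in kilobases. Simulated counts for this comparison (14369 genes) led to calls for 165 of 200 genes changed 1.5-fold and 189 of 200 changed 2-fold. False calls numbered 9 and 10. The changed genes all averaged at least 1 CPM, so recovery of scarcer genes was not measured. Only these 200 were changed, whereas 71.0% of tested genes were called in the real libraries. The recovered shares therefore need not hold for the real comparison. Depth was 43168605 to 79718782 counts per library. Precision also rests on the scatter between libraries of a group beyond counting error. This scatter, which edgeR calls the biological coefficient of variation, was 7.94%. Floors, and a ratio to a floor, cover the counting error of the lower group only. The strand of origin cannot be told apart.

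The guidance genes and all lists (129 genes, of which 128 were found and the remaining symbol is an older name of Adgre1) were chosen with earlier results of these data known. Per family, the rule for named genes took up to 4 called rises and 4 called falls by size among genes that average 1 CPM or more in their higher group, the gene with the highest FPKM, and families with 2 or fewer tested genes in full, and per list 2 rises and 2 falls. Other genes are given by means, ranges or counts, and were chosen after their values were seen, as were the genes in the neighbour windows. Alternatives were RLE size factors, library size, DESeq2 1.42.0, limma voom 3.58.1, 2 other filters, a robust fit, a replicate block, glmTreat, centring on chromosome medians, TPM and leaving out each library.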

Additional observations from a re-analysis of the deposited data

How the results depend on the processing

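Depth limits the 8 untested guidance genes, which had at most 34 fragments in a group. Replicate numbers did not pair the libraries (correlation of same-numbered deviations 0.01 for each number, other pairs -0.02 to 0.01), and with the replicate block 23 guidance genes were higher and 20 lower, as without it. Leaving out 1 library gave 23 to 24 higher and 18 to 21 lower, and 1 to 2 neuropilins lower. Both neuropilins (2) were lower with RLE size factors, library size only, DESeq2, limma voom and a filter at a mean of 1 CPM.

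Tested against a log2 fold change of 1 (glmTreat), fewer genes pass by construction. Of all genes 1479 were higher and 1344 lower, and of guidance genes 11 were higher and 13 lower. By family these were 2 Eph receptors higher and 2 lower, 2 ephrins higher and 0 lower, and 5 semaphorins higher and 5 lower. Plexins had 0 higher and 3 lower, 2 Robo receptors were higher, 3 Slits were lower, and 0 netrins were higher and 0 neuropilins lower. In the lists, 4 effectors were higher and 4 lower, 2 neuropilin or plexin partners higher and 3 lower, and 0 proteases higher and 0 lower. The netrin and RGM list had 4 higher and 2 lower, and the Flrt and adhesion list 1 higher and 3 lower.

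Log2 ratios of summed FPKM (KMT2D KO over KMT2D WT), whose main values were -0.42 for Eph receptors, 0.43 for ephrins, -1.12 for semaphorins, -0.07 for plexins, -0.36 for neuropilins, 2.06 for Robo receptors, -1.89 for Slits and 0.64 for netrins, kept their sign as TPM and with library size only. As TPM they were -0.63, 0.23, -1.33, -0.27, -0.56, 1.86, -2.10 and 0.43 in that order. With library size only, which shifts the median of all genes by -0.11, they were -0.53 for Eph receptors, -1.23 for semaphorins, -0.18 for plexins, -0.47 for neuropilins, 1.95 for Robo receptors and 0.53 for netrins. Relative to its chromosome median the value of Ephb3 was 0.19, reversed, since chromosome 16 had a median of -0.44.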
